A study of Mus musculus with 2 samples.

Results

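Car1, Car2, Car3, Car13 and Car4 are 5 of the 21938 protein-coding mouse genes of the GENCODE M21 annotation, and they encode carbonic anhydrases. They were taken by name and not by a cutoff on any value measured here, though with earlier results of these data known. Open chromatin at each was read from lists of ATAC-seq intervals, the stretches of DNA where a transposase inserted sequencing adapters more often than around them. For each gene, every interval that overlapped the gene body or the 50 kb on either side was collected. An interval within 1 kb of any annotated transcription start of the gene counted as its promoter, another one inside the gene as intragenic, and the rest as outside. Car13, Car1, Car3 and Car2 lie in this order on chromosome 3 and were treated as 1 locus of 359 kb, at chr3:14591727-14950770 in mm10. Car4 lies on chromosome 11, in a locus of 108 kb at chr11:84907786-85016044.

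Primary erythroblasts, which mature into red blood cells, were assayed from male C57BL/6J mice of 5 to 6 weeks of age. The series holds 1 group with 2 biological replicates, each of 50000 cells, so no condition was compared with another. Each replicate has its own biosample but both carry the same donor identifier, so their spread may be partly technical. The label of replicate 2 names a pair of sequencer models and that of replicate 1 names none. Library depth is unknown, as no reads were counted in these lists. Neither the tissue of origin nor any sorting of the cells is named in the labels. The promoters of 8 of 8 erythroblast marker genes were open in both replicates, against 0 of 2 for T cells, 0 of 2 for B cells, 0 of 4 for granulocytes and monocytes and 0 of 2 for hepatocytes. Of all protein-coding genes, 41.4% had an open promoter in both replicates. Sets of 2 or 4 genes are too small to set apart from that share, and the markers were chosen with earlier results of these data known.

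Carbonic anhydrases interconvert carbon dioxide and bicarbonate, which lets red blood cells carry carbon dioxide from the tissues to the lungs. Car1 and Car2 encode the abundant cytosolic enzymes of the red cell, and Car2 is also widely used in kidney, bone and stomach. Car3 encodes a cytosolic enzyme best known from muscle and fat, Car13 another cytosolic enzyme, and Car4 an enzyme anchored to the outer cell membrane. Mouse Car1 has a far promoter used in erythroid cells and a nearer one used in colon. An enhancer upstream of Car2 has been described in mouse erythroid cells.

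Sequences at the centres of intervals that lay away from the genes' 5′ ends are shown first, and the first 3 come from the Car2 end of the cluster. The intergenic site 38.3 kb upstream of Car4 is not printed. Each printed sequence is the 151 bp around the strongest summit, the base of highest signal, of replicate 1, on the forward strand of GRCm38 (mm10). Capitals mark matches on either strand to GATA, spelled AGATAA or AGATAG, or else TGATAA or TGATAG, in the first 3 sequences. In the fourth they mark the core of the CTCF motif, spelled AGGNGGC, and in the last a variant of it, AGANGGC. The first 2 lie between Car3 and Car2, at chr3:14877708-14877858 and chr3:14879010-14879160. The next lies in an intron of Car2 at chr3:14889180-14889330, the fourth in an intron of Car3 at chr3:14869905-14870055, and the last upstream of Car4 at chr11:84918561-84918711.
Car2, farther upstream: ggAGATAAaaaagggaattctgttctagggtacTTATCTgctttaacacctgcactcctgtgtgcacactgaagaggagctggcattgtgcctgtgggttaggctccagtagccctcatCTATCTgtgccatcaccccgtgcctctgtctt
Car2, nearer upstream: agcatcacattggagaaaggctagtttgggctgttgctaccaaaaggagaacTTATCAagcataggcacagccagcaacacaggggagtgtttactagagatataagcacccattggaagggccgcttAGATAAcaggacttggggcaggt
Car2 intron: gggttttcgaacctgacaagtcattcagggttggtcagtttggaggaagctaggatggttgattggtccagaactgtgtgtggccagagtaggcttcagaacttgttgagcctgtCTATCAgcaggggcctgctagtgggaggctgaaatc
Car3 intron: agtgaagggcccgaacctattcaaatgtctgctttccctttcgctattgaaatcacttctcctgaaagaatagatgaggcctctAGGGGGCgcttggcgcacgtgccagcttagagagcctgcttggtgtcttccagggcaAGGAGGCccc
Car4 locus, upstream 2: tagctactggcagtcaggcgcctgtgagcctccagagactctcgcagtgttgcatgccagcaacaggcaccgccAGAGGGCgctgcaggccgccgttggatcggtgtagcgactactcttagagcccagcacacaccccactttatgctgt

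Across the chromosome 3 cluster, open chromatin sat at the Car13 start and, more densely, from Car3 into Car2, with a long stretch between them that held no interval of the stricter lists and took in all of Car1. The stricter list of each replicate kept intervals with an irreproducible discovery rate (IDR) of up to 0.05. It held 7 intervals at the cluster in replicate 1 and 7 in replicate 2, and every one of replicate 1 overlapped one of replicate 2. Over all protein-coding genes, the median count per gene with 50 kb on either side was 2 in replicate 1 and also 2 for shared intervals. The overlap is therefore not read as a trait of this locus. In each replicate 3 of the 7 were promoter intervals by the rule, 1 was intragenic and 3 were outside the genes. The cluster had 19.5 intervals per Mb in each replicate, against 6.52 and 6.91 per Mb over the genome. The genome values take in stretches far from any gene, so they are not a like measure for a locus drawn around genes. The longest stretch without an interval was 227 kb in both replicates, as against a median gap of 20.9 kb in replicate 1 and 19.5 kb in replicate 2. Gaps this long or longer made up 10.9% of all gaps in replicate 1 and 10.4% in replicate 2, so the stretch was long but not rare.

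**Figure D1:**
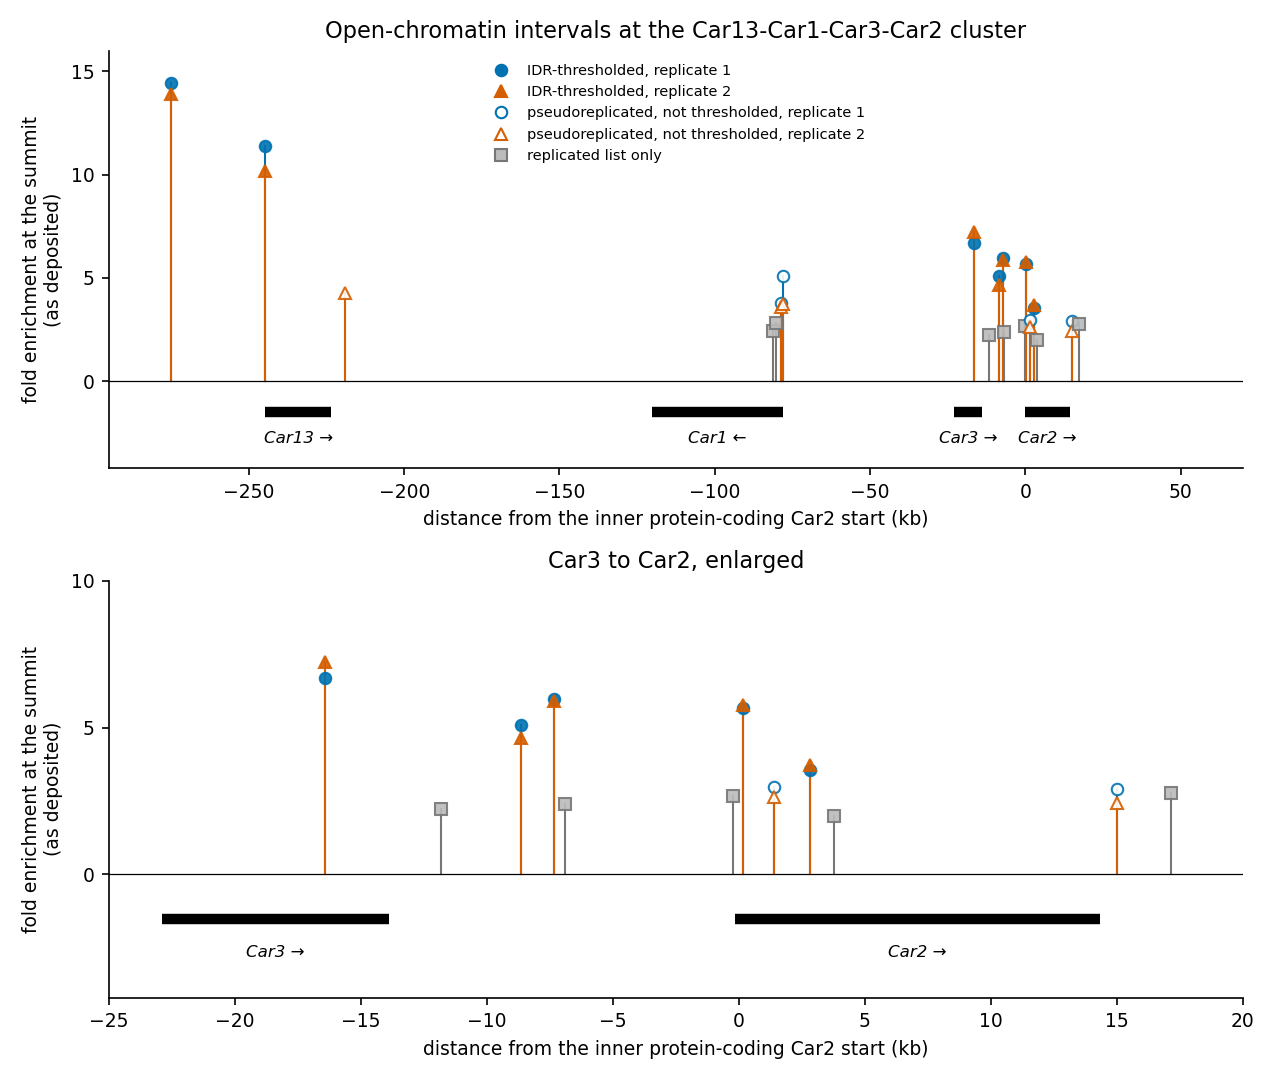
Intervals at the Car13-Car1-Car3-Car2 cluster, with the distance of each summit from the inner protein-coding Car2 start in kb on the x axis and the deposited fold enrichment on the y axis. Filled markers are intervals of the thresholded list of replicate 1 (circles) and replicate 2 (triangles), open markers those in a pseudoreplicated list but no thresholded one, grey squares those in the replicated list only, and black bars the genes with an arrow for their strand. The tallest pair in the cluster lies to the left of Car13, Car1 has open and grey markers only, and 4 of the 7 pairs of filled markers lie from the region upstream of Car2 into its gene body.

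By promoter, 3 of the 5 genes (Car2, Car3 and Car13) had an interval in the thresholded list of both replicates, against 41.4% of all protein-coding genes. In the longer and less strict pseudoreplicated lists Car1 joined them and the count was 4 of 5, against 46.6%. It was also 4 of 5 in the replicated list made from both replicates, against 50.7%. Of the 5 genes only Car2 had an intragenic interval away from its promoter in the thresholded list of both replicates, against 11.3% of all genes. A set of 5 genes is too small to set these shares apart from the background, and they are given as a description.

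Car2 (ENSMUSG00000027562.12, chr3:14886273-14900770, forward strand) had the most intervals of the cluster. Its gene body with 50 kb on either side held 5 thresholded intervals in each replicate, against a median of 2 over all protein-coding genes, and more than 76.9% of genes in replicate 1 and 75.4% in replicate 2. The neighbouring Car3 has the same 5 within its own window, so these counts are not independent. Of the 5, 4 fell within 12.3 kb in replicate 1 and 12.2 kb in replicate 2, at a pair of sites upstream of Car2, at its promoter and in an intron.

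The Car2 promoter interval had its summit in the 5′ untranslated region, 0.166 kb downstream of the inner of its protein-coding starts, the one all Car2 distances refer to. Its enrichment, the height of the summit as a fold over background from the authors' peak caller, was 5.67 in replicate 1 and 5.78 in replicate 2 (5.72 ± 0.0735, SD, n = 2). Among all genes' strongest promoter intervals, only 6.69% in replicate 1 and 7.41% in replicate 2 were as low or lower. The promoter of this red cell enzyme was thus open in both libraries but stood near the bottom of open promoters by enrichment.

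Upstream of Car2, in the intergenic stretch that starts at the Car3 end, there were 2 intervals with summits 1.30 kb apart in each replicate. The farther one, 8.65 kb upstream of the Car2 start in replicate 1, had an enrichment of 5.10 in replicate 1 and 4.64 in replicate 2 (4.87 ± 0.324, SD, n = 2), and its summit fell on the same base in both replicates. The nearer one, 7.34 kb upstream, had 5.96 and 5.89 (5.92 ± 0.0477), with summits 3 bp apart. The enrichment of the nearer site was therefore as high as that of the Car2 promoter, and the values of the replicates differed by less than those of the 2 sites.

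The Car2 intron interval, 2.827 kb downstream of the Car2 start, was the least enriched thresholded interval at either locus. Its enrichment was 3.56 in replicate 1 and 3.71 in replicate 2 (3.63 ± 0.108, SD, n = 2). Its IDR was 0.0207 in replicate 1 and 0.0476 in replicate 2, so in replicate 2 it lay just inside the threshold. A further Car2 intron interval, at 1.397 kb, was in both pseudoreplicated lists, with 2.96 and 2.63, and in the replicated list, but in neither thresholded list. The same held for one past the gene's end, with 2.92 and 2.45.

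Within 75 bp of the summits, the GATA matches of the cluster's stricter intervals were all at the Car2 end. GATA is the motif of GATA1, the main transcription factor of erythroid cells. Of the 10 intervals shared by the replicates at the 2 loci, 3 had a GATA match within 75 bp of the summit: both upstream sites and the Car2 intron site. Over all thresholded intervals 27.0% in replicate 1 and 27.0% in replicate 2 held one, so 3 of 10 was near the background share. Within 150 bp the count was 4, since the Car3 intron site then held 2 matches. The farther upstream site held 3 matches, and 2.40% of the 7571 thresholded intervals of replicate 1 that lay over 1 kb from every annotated start held 3 or more. The nearer site held 2 matches, and 15.5% of the same intervals held 2 or more. The intron site held 1, and 45.8% held at least 1. Within 50 bp of the summit the farther site held 2 matches, the nearer site 1 and the intron site 1. The Car2 promoter interval had no GATA match, as was the case for most intervals near a start, of which 13.1% held one.

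Matches to the other motifs were counted in the same windows. The Car13 promoter held 2 matches to the KLF motif (CCNCNCCC), bound by KLF1 and its relatives, and 1 to the CTCF core, and 52.9% of intervals near a start held a KLF match. The farther Car2 upstream site also had 1 E-box (CAGNTG), found in 44.2% of intervals away from starts. The Car3 intron window had 2 matches to the CTCF core spelling AGGNGGC, against 4.46% of intervals near a start and 2.62% of those away from starts with 2 or more. They read AGGGGGC and AGGAGGC, and within 50 bp of the summit only the first, 1 match, remained. The Car2 promoter window had 1 CTCF core match, found in 27.9% of intervals near a start, and 1 TATA box (TATAAA), found in 1.70%, which lay downstream of the annotated starts. None of the shared intervals held the NF-E2 or AP-1 motif (TGANTCA), found in 5.71% of all thresholded intervals of replicate 1. In the printed windows no 2 matches overlapped. A match is a run of letters and does not show that a factor was bound.

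**Figure D2:**
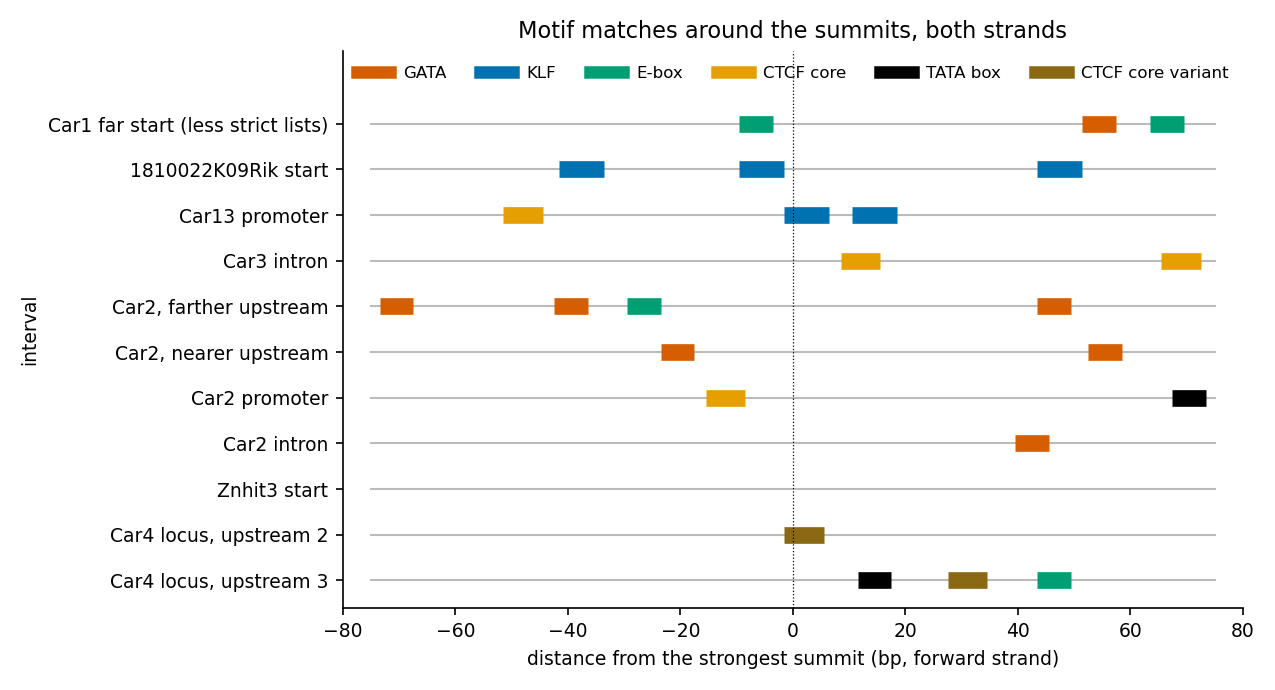
Motif matches on both strands in the 151 bp around the strongest summit of each shared interval and of the Car1 far-start interval of the less strict lists, with the distance from the summit in bp on the x axis and 1 row per interval. Each coloured block is 1 match, and GATA blocks appear in the 2 rows upstream of Car2, in the Car2 intron and in the Car1 row.

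Car1 (ENSMUSG00000027556.15, chr3:14766216-14808368, reverse strand) had no thresholded interval in its gene body or within 50 kb of it in either replicate. The closest thresholded interval to its far start was the one in the Car3 intron, 61.1 kb away in replicate 1 and 61.3 kb in replicate 2. The less strict lists placed an interval across this start in both replicates. Its summit lay 0.13 kb upstream of the start in replicate 1, and its enrichment was 5.11 in replicate 1 and 3.74 in replicate 2 (4.42 ± 0.966, SD, n = 2). Of all intervals of the same list, 42.7% in replicate 1 and 21.1% in replicate 2 were as low or lower. Among all genes' strongest promoter intervals in these less strict lists, the shares were 11.2% and 4.09%. For the Car2 promoter in the same lists they were 15.6% and 16.1%, so Car1 stood lower than Car2 by this like measure. Its IDR was 0.183 in replicate 1 and 0.0979 in replicate 2, both above the threshold.

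A second Car1 interval lay 0.772 kb into the gene from the far start, with an enrichment of 3.78 and 3.60 (3.69 ± 0.125, SD, n = 2) and an IDR of 0.339 and 0.344 in replicates 1 and 2. The replicated list added 2 more in Car1 introns within 3.24 kb of the far start, at 2.45 and 2.84. All 4 intervals in or at Car1 were therefore at its far end, the one named above as the erythroid promoter. At the near start, that of a single transcript, the nearest interval of any list was 26.4 kb away. The Car1 far-start window held 1 GATA match and 2 E-box matches. Among pseudoreplicated intervals of replicate 1 near a start, 14.2% held a GATA match and 5.18% held 2 or more E-boxes. Within 50 bp of the summit the same window held 0 GATA matches and 1 E-box. Each of the 2 intron windows of the replicated list held 1 GATA match, found in 34.2% of that list's intervals away from starts.

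The Car3 promoter call rested on a single annotated transcript. Car3 (ENSMUSG00000027559.5, chr3:14863512-14872523, forward strand) had its interval in an intron, 0.802 kb downstream of the inner start, which belongs to a retained-intron transcript. It lay 6.47 kb from the outermost Car3 start in both replicates. Its enrichment was 6.68 in replicate 1 and 7.23 in replicate 2 (6.95 ± 0.386, SD, n = 2). At the outermost starts of Car3, among them that of its protein-coding transcript, there was no interval in any of the 5 lists, and the one nearest to that coding start was 5.92 kb away. Counted at each gene's outermost start only, the promoters open in both replicates were 2 of 5, those of Car2 and Car13.

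Car13 (ENSMUSG00000027555.8, chr3:14641727-14663002, forward strand) had the highest promoter enrichment of the 5 genes. Its values were 11.4 in replicate 1 and 10.2 in replicate 2 (10.8 ± 0.864, SD, n = 2), above the medians over all open promoters of 9.65 and 9.76. The summit lay 0.022 kb upstream of the single annotated start in replicate 1. The highest interval of the locus, with 14.4 in replicate 1 and 13.9 in replicate 2 (14.2 ± 0.378), lay farther out, at the start of 1810022K09Rik and 30.4 kb upstream of the Car13 start. It belongs to the locus by distance alone, since it is the promoter of another gene. A single interval on the other side of Car13 was in the pseudoreplicated list of replicate 2 only, at 4.27.

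The order of the intervals depended on which of the caller's measures ranked them. By enrichment, the Car13 promoter stood at percentile 84.1 of its list in replicate 1 and 74.95 in replicate 2, and the Car2 promoter at 21.1 and 23.4. By the −log10 p of the same summits, the Car13 promoter stood at 38.3 and 34.9, and the Car2 promoter at 56.7 and 59.8. The nearer site upstream of Car2 stood at 24.7 and 24.8 by enrichment and at 65.2 and 65.0 by −log10 p. The farther site stood at 14.9 and 10.8 by enrichment and at 50.6 and 43.6 by −log10 p. Among the intervals no more enriched than the nearer site, 2.12% in replicate 1 and 2.16% in replicate 2 had a −log10 p as high. For the Car2 promoter these shares were 5.19% and 3.77%, for the farther site 4.84% and 6.72%, and for the Car13 promoter 54.4% and 53.6%.

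The Car2 promoter and its 2 upstream sites thus had high significance for their enrichment in both replicates, and the Car13 promoter the reverse. This was less marked at the Car2 intron site, where the shares were 32.4% in replicate 1 and 24.3% in replicate 2. It was not particular to Car2 either, as the interval at the start of 1810022K09Rik had the shares 0.529% and 0.742%. When only intervals at or above the median enrichment of their list were kept, Car13 was the 1 gene of the 5 with an open promoter in both replicates. When only those at or above the median −log10 p were kept, it was Car2. The cause of the difference between the measures was not tested.

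**Figure D3:**
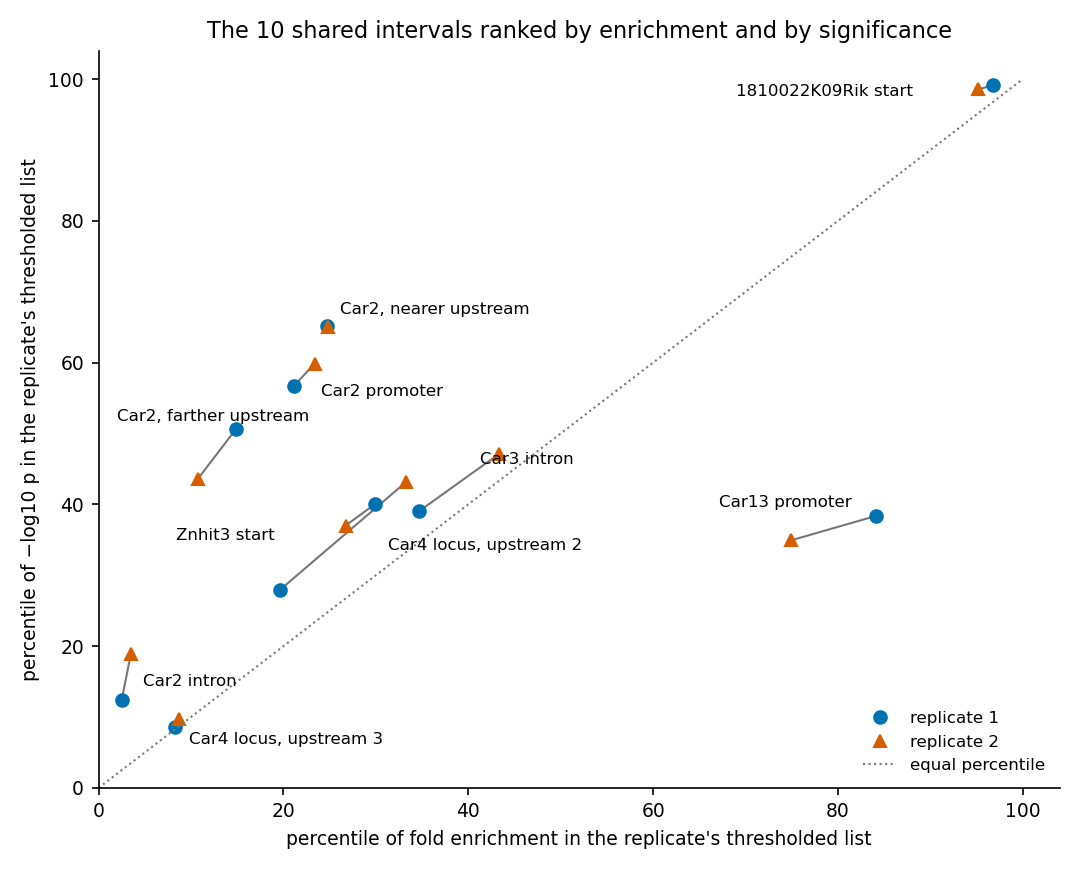
The 10 shared intervals of both loci, with the percentile of fold enrichment in the replicate's thresholded list on the x axis and the percentile of −log10 p on the y axis. Circles are replicate 1, triangles replicate 2, a line joins the values of 1 interval and the dotted line marks equal percentiles. The Car2 promoter and its 2 upstream sites lie well above the dotted line, and the Car13 promoter lies below it at 84.1 and 74.95 against 38.3 and 34.9.

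The base composition of the gene starts did not order the 5 genes as their calls did. In the 500 bp on either side of the outermost start, the ratio of observed to expected CpG was 0.795 at Car2, 0.680 at Car4, 0.492 at Car13, 0.343 at Car3 and 0.144 at Car1, against a median of 0.552 over all protein-coding genes. In the tenth of all genes with a ratio like that of Car1, 7.98% had an open promoter in both replicates, against 70.8% in the tenth that held Car2. In the tenth that held Car4, 63.8% of genes were open, and Car4 was not among them. The ratio was taken at the outermost start, while a call could rest on any start, as that of Car3 did. At the outermost start only Car2 and Car13 were open, and the order was then broken by Car4 alone, with a higher ratio than Car13.

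Car4 (ENSMUSG00000000805.18, chr11:84957786-84966044, forward strand), which encodes the membrane-anchored enzyme, had no interval in its gene body or at any of its 6 annotated transcripts' starts in any of the 5 lists. Its locus still held 3 thresholded intervals in each replicate, all outside the gene and each shared by both replicates. That is 27.7 per Mb against 6.52 and 6.91 per Mb over the genome, which takes in stretches far from any gene. Set beside the same window of all protein-coding genes, 3 was close to the median of 2. Fewer intervals were held by 58.9% of genes in replicate 1 and 57.5% in replicate 2. All 3 lay together at the far upstream edge of the locus, the nearest of them 38.3 kb from the outermost Car4 start in both replicates. One was at the start of Znhit3, with an enrichment of 5.54 in replicate 1 and 6.503 in replicate 2 (6.02 ± 0.679, SD, n = 2).

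The other two were intergenic. The site 39.2 kb upstream of Car4 had 6.34 and 6.02 (6.18 ± 0.227, SD, n = 2), and the site 38.3 kb upstream had 4.392 and 4.404 (4.398 ± 0.00913) in replicates 1 and 2. No GATA, KLF or AGGNGGC match lay within 75 bp of their summits. The AGANGGC spelling, added after the windows had been read, matched at the summit of the first of these, where the last printed sequence shows it, and once in the second, against 21.3% of the intervals of replicate 1 away from starts. Downstream of Car4 the closest interval was in both pseudoreplicated lists and the replicated list but in neither thresholded list, with its summit 13.98 kb from the innermost Car4 start, with 4.55 and 3.71. The replicated list held 10 intervals at the locus, and the nearest to the outermost Car4 start was 13.5 kb away.

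**Figure D4:**
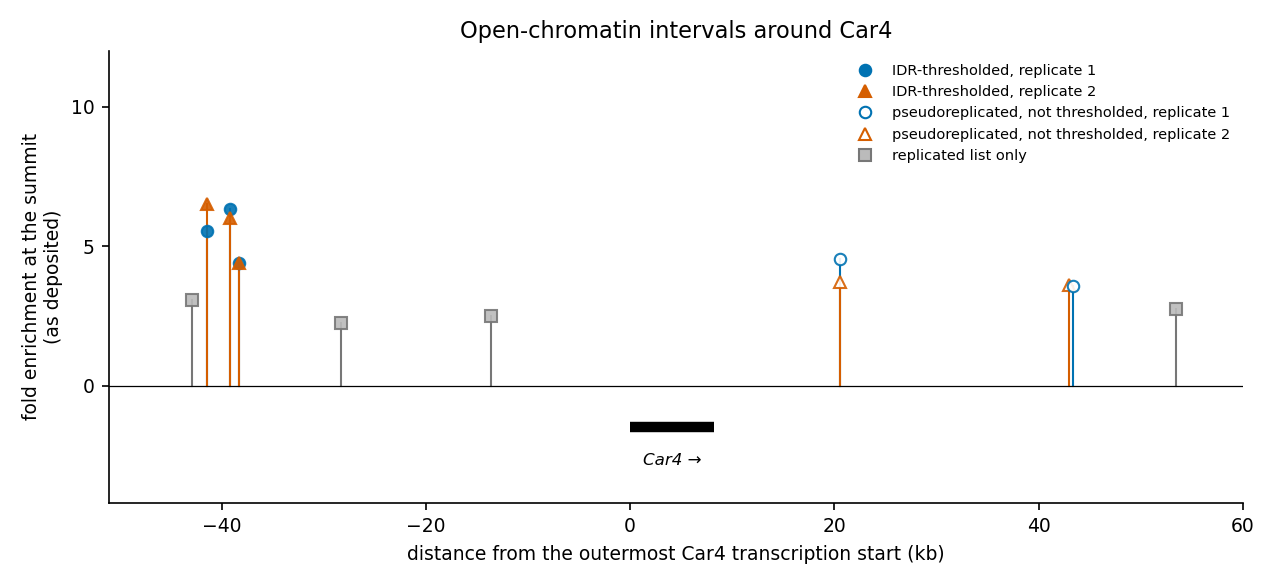
Intervals around Car4, with the distance of each summit from the outermost Car4 transcription start in kb on the x axis and the deposited fold enrichment on the y axis. Filled markers are thresholded intervals of replicate 1 (circles) and replicate 2 (triangles), open markers those in a pseudoreplicated list but no thresholded one, grey squares those in the replicated list only, and the black bar the gene. No marker stands over the gene, and the filled markers lie to the left, the nearest of them 38.3 kb from the start.

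Among the other 11 carbonic anhydrase genes, 2 had a promoter interval in both thresholded lists, against 41.4% of all protein-coding genes. The count was 2 in both pseudoreplicated lists, against 46.6%, and 5 in the replicated list, against 50.7%. Car5b, which encodes a mitochondrial enzyme, had 15.5 and 15.4 (15.5 ± 0.0788, SD, n = 2), above the Car13 promoter. Car7, a cytosolic enzyme known from neurons, had 11.4 and 11.2 (11.3 ± 0.109), but its interval also lay at the start of Nae1, whose nearest start was 2 bp from the summit in both replicates, as against 55 bp and 50 bp for Car7. Car5a, the other mitochondrial enzyme, had a promoter interval in the pseudoreplicated list of replicate 1, at 4.39, and in the replicated list, at 4.17, but not in the lists of replicate 2, and an intragenic one in both thresholded lists. Car9 and Car12, membrane enzymes, had theirs in the replicated list only, at 3.77 and 3.03. The Car9 interval also lay at the start of Gm12454, 52 bp from the summit, as against 138 bp for Car9. Car6, Car8, Car10, Car11, Car14 and Car15 had none in any of the 5 lists.

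The genes that move carbon dioxide and bicarbonate across membranes gave 5 open promoters of 6 in both thresholded lists, against 41.4% of all protein-coding genes. Slc4a1, the anion exchanger band 3 of the red cell, had 3.43 in replicate 1 and 3.81 in replicate 2, and Aqp1, a water channel that also passes carbon dioxide, had 3.05 and 3.39. Rhag, of the red cell's Rh complex, had 6.49 and 6.52. These red cell genes, like Car2, lay below the medians of 9.65 and 9.76 over all open promoters, while Slc4a7 had 13.4 and 12.6. Car3 and Slc4a2 were also below both medians, so a low value was not particular to the red cell genes. Slc4a1 had 12 and 13 thresholded intervals in its window in replicates 1 and 2 and Aqp1 had 8 and 11, while Rhag had 4 and 6 and Slc4a7 had 1 and 1, against 5 and 5 for Car2. Slc4a2 had 8.47 in replicate 1 and 8.79 in replicate 2 at an interval that also lay at the start of Cdk5, and Slc4a4 had no interval in its window in any list.

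**Figure D5:**
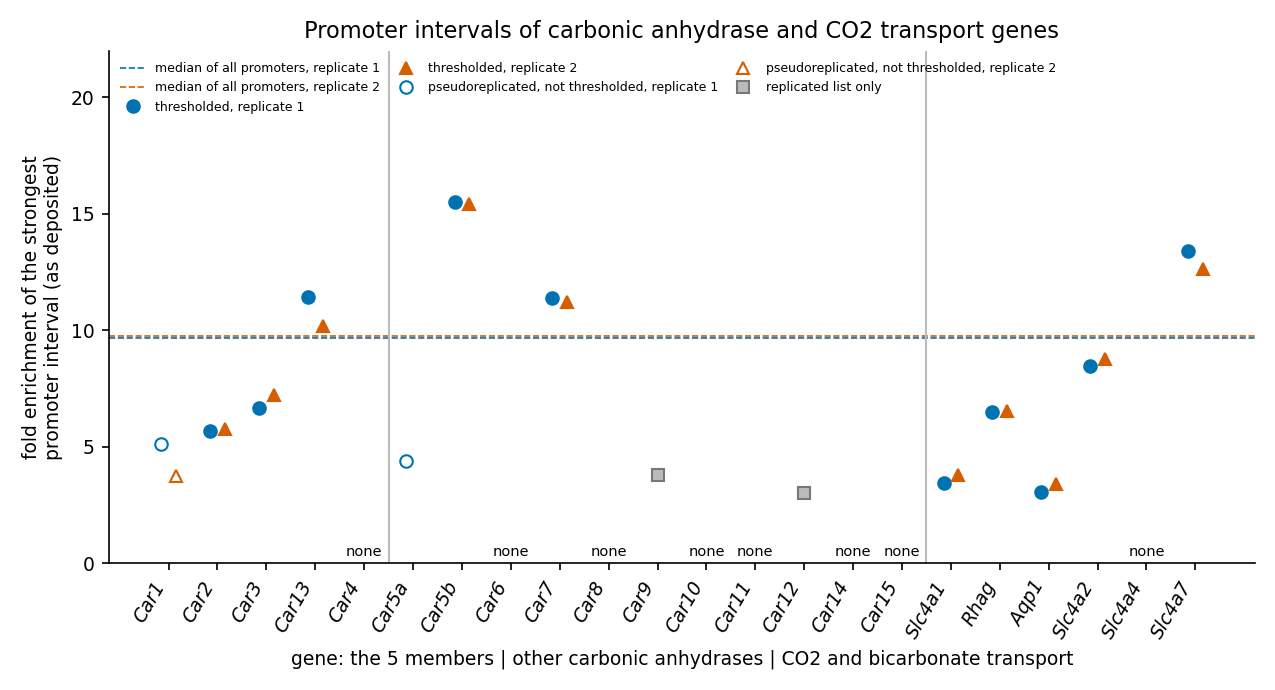
Fold enrichment of the strongest promoter interval of each gene on the y axis, for the 5 carbonic anhydrase genes described, the other 11 and the 6 transport genes on the x axis. Filled circles and triangles are the thresholded lists of replicates 1 and 2, open ones the pseudoreplicated list where the thresholded one had no interval, grey squares the replicated list only, and dashed lines the medians over all promoters in the thresholded lists. Car2 and Car3 lie below the dashed lines of 9.65 and 9.76, Car13 above them, and Car4 has no interval.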

How the data were processed

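ATAC-seq intervals of 2 replicates of 1 group were read from each replicate's thresholded, pseudoreplicated and ranked lists and from the replicated list made from both, per the file listings. The aligner and peak caller, with their settings, were not given in the sources used. Coordinates are mm10, per the labels. Each deposited line gives a summit with a score of at most 1000, a fold enrichment over background and a −log10 p, all by the authors' caller, and a ranked list adds the global IDR on a −log10 scale. Lists were not stated to be scaled to each other, so values described and ranked intervals within a list. No read counts were in the lists used, so depth is unknown and no interval for counting error is given.

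Lines with the same start and end were merged to 1 interval at its strongest summit, giving 17777 and 18837 thresholded, 31830 and 33552 pseudoreplicated and 43051 replicated intervals on 21 chromosomes. Overlap meant at least 1 bp. Genes came from GENCODE M21 and sequence from the GRCm38.p6 genome, with Python 3.11.15, pandas 2.3.3, NumPy 2.4.6, pysam 0.24.0 and matplotlib 3.10.9. The promoter rule, overlaps and motif search were tested on simulated data. A percentile is the share of a list at or below a value. Genes were named as members, as the other carbonic anhydrases, as a list of 6 transport genes (a further one is not reported here), as markers, or for a start within 1 kb of an interval at a locus. Members and lists were chosen with earlier results of these data known. No test was made, since 1 group of 2 replicates allows none. Other flanks, promoter distances, lists, summit rules, motif windows and leaving out a replicate were tried, and a filter on −log10 p and the AGANGGC spelling were added after seeing the data.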

Additional observations from a re-analysis of the deposited data

How the results depend on the processing

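Over 9 results and 38 alternatives, 26 values stayed close to those reported and 12 moved. The count of 3 open promoters fell to 1 with intervals at or above the median enrichment (Car13) and to 1 at or above the median −log10 p (Car2). It was 2 with a promoter of 500 bp or with the outermost start alone. The 7 intervals of the chromosome 3 cluster became 2 at the median enrichment, 3.5 at the median −log10 p and 13.5, as the mean of both replicates, in the pseudoreplicated lists. The 3 at Car4 became 0 with a flank of 25 kb, 6.5 with 100 kb, 0 at the median enrichment, 0 at the median −log10 p and 5 in the pseudoreplicated lists. Averaged over all summits of the interval, the Car3 enrichment was 4.50 and that of Car13 was 6.62. These changes follow from the width of the windows, the starts counted, or keeping fewer, more or weaker summits. With 1 replicate left out, the counts stayed at 3, 7 and 3, and enrichment ranged from 5.67 to 5.78 at Car2, 6.68 to 7.23 at Car3 and 10.2 to 11.4 at Car13. No paired analysis was possible because there is 1 group. With depth unknown, the absence of an interval at Car4 or at the near Car1 start cannot be told apart from too few reads there.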
